A study of Homo sapiens with 4 samples.

Results

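Adherens junctions and desmosomes were followed through 10 genes, CDH1, CDH3, CTNNA1, CTNND1, JUP, PKP2, PKP3, DSP, DSG2 and DSC2, which were taken by name from the 58735 gene identifiers of the deposited expression values. All 10 were found, and each had a mean of at least 1 FPKM (fragments per kilobase of transcript, scaled to sequencing depth) over the libraries, as did 14523 genes in all. RNA had been sequenced from HCT116, an established human colorectal carcinoma cell line, 48 h after transfection with a control siRNA (2 libraries) or with siRNAs targeting KIF26B, a gene of the kinesin family (2 libraries). All libraries came from this 1 line, and the labels tie neither a particular siRNA nor a separate culture to a library. The p-values therefore measure the spread between these libraries only. Whether the 2 KIF26B siRNA libraries received the same siRNA is not stated, and replicate here is the word of the labels.

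Adherens junctions hold neighbouring epithelial cells together through classical cadherins, whose cytoplasmic tails bind p120-catenin, beta-catenin or plakoglobin, and alpha-catenin links this complex to actin. Desmosomes use another branch of the cadherin family, the desmogleins and desmocollins, and pass force through plakoglobin, plakophilins and desmoplakin to keratin filaments. Plakoglobin is shared by both structures, and in the colonic epithelium both are found along the lateral membranes between cells.

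The targeted gene did not set the groups apart. KIF26B (ENSG00000162849) was at 0.110 and 0.205 FPKM in control replicates 1 and 2, from 31 and 73 recovered reads, and at 0.140 and 0.0307 FPKM in KIF26B siRNA replicates 1 and 2, from 43 and 8 reads. In replicate 1 of the KIF26B siRNA label, the level thus lay between those of the controls, and every direction below compares libraries by their labels. Between 19193890 and 24851973 reads on genes were recovered per library, and mitochondrial genes took 6.82% and 6.84% of them in the controls and 9.58% and 7.70% in KIF26B siRNA replicates 1 and 2. Scaled to reads without mitochondrial genes, the log2 fold changes of all 10 genes kept their sign, from -0.46 for PKP2 to 0.36 for CDH3, and none passed limma at an adjusted p of 0.05. Of 6 epithelial markers, 5 had a mean of at least 1 FPKM, with a summed level of 1657 and 1672 FPKM in the controls and 1545 and 1570 FPKM in the other group, while VIL1 was at or below 0.037 FPKM. Mesenchymal markers summed to 10.7 and 10.5 FPKM in the controls and to 6.66 and 10.9 FPKM in KIF26B siRNA replicates 1 and 2, with 2 of 8 (FN1 and COL1A1) at 1 FPKM or more. FN1 was at 2.86 FPKM in each control and at 1.40 and 1.78 FPKM in KIF26B siRNA replicates 1 and 2 (log2 fold change -0.58, limma adjusted p 0.247). None of 4 leukocyte markers and none of the 2 endothelial markers found reached 1 FPKM, and of 2 neural markers TUBB3 did, for a neural sum of 2.86 and 2.74 FPKM in the controls and 3.68 and 4.30 FPKM in KIF26B siRNA replicates 1 and 2.

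Across the 10 genes, 7 had groups that did not overlap, and they were divided in direction. CDH1, CTNNA1 and PKP2 were lower in both libraries labelled KIF26B siRNA than in both controls, and this pattern was seen in 27.8% of all genes tested. CDH3, CTNND1, JUP and PKP3 were higher in both, a pattern of 24.9% of all genes tested. Together the non-overlapping genes made up 7 of 10, beside 52.6% of all genes tested. DSP, DSG2 and DSC2 overlapped between the groups. No gene of the 10 passed limma at an adjusted p of 0.05, in a fit that called 0% of all genes tested in either direction, and the adjusted p of the 10 ran from 0.272 to 0.954. At an unadjusted limma P below 0.05, 1 gene was lower (PKP2) and 1 was higher (CDH3), where 8.68% and 7.74% of all genes tested passed in these directions. None also had a log2 fold change beyond 1, as 0.606% (lower) and 0.813% (higher) of all genes did. The median log2 fold change of the 10 was -0.03 and that of all genes tested was -0.01. In bulk RNA, fewer cells that carry a transcript and less of it per cell cannot be told apart.

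**Figure D1:**
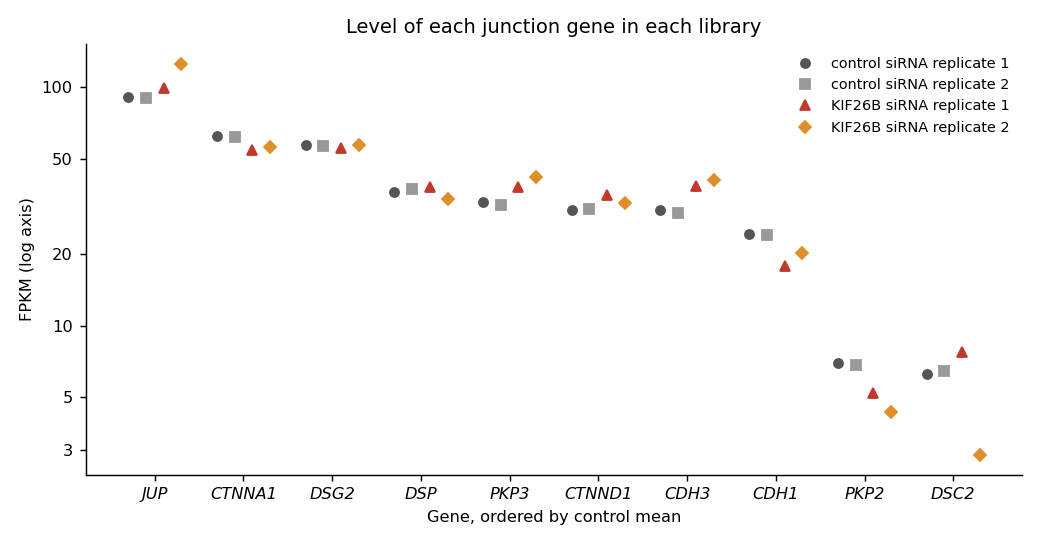
FPKM (log axis) of the 10 junction genes in each of the 4 libraries, with genes ordered from left to right by their control mean. Control symbols nearly coincide for every gene, whereas DSC2 stood at 7.75 FPKM in KIF26B siRNA replicate 1 and at 2.87 FPKM in replicate 2.

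In the controls, transcript levels per length spanned more than 1 order of magnitude. JUP was highest at 90.1 ± 0.0996 FPKM (mean ± SD, n = 2), followed by CTNNA1 at 61.7 ± 0.232, DSG2 at 56.8 ± 0.390, DSP at 36.9 ± 0.744 and PKP3 at 32.6 ± 0.669 FPKM. CTNND1 (30.5 ± 0.266 FPKM) and CDH3 (30.1 ± 0.518 FPKM) were the only neighbours in this order whose control values overlapped. CDH1 followed at 24.0 ± 0.109 FPKM, and PKP2 (6.88 ± 0.0842 FPKM) and DSC2 (6.37 ± 0.157 FPKM) were lowest. With KIF26B siRNA the outer places were kept by JUP above and by PKP2 and DSC2 below, and the neighbours DSG2 and CTNNA1, PKP3 and CDH3, DSP and CTNND1, and DSC2 and PKP2 overlapped. These levels rest on the transcript length that the authors divided by. The length recovered from their values was 0.976 to 1.02 times the annotated exon length for 6 of the genes, but 0.578 times for CTNND1, 0.652 times for DSG2, 0.685 times for PKP2 and 0.741 times for DSP. A percent change or a ratio between groups does not depend on this length, but a log2 fold change on log2(FPKM + 1) does so through the added 1. Annotated antisense genes share 75 to 537 exon bases with CDH1, CDH3, CTNNA1, DSP or DSG2 and were at 1.49 FPKM or less, and since strand use in counting is not stated, reads in these bases cannot be told apart. PKP2 shares 424 and DSC2 554 exon bases with non-coding genes on the same strand.

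The classical cadherins lay in opposite directions. CDH1 (ENSG00000039068; GRCh37 chromosome 16, 68771195 to 68869440, plus strand) encodes E-cadherin, the main adhesion receptor of epithelial adherens junctions. It was at 24.1 and 23.9 FPKM in control replicates 1 and 2 and at 17.7 and 20.2 FPKM in KIF26B siRNA replicates 1 and 2, from 2917, 3643, 2337 and 2256 recovered reads. Both libraries labelled KIF26B siRNA lay below both controls, and the group mean was 18.96 ± 1.77 FPKM, 20.9% below the control mean. The log2 fold change was -0.33 (SE 0.12, limma adjusted p 0.316). CDH3 (ENSG00000062038; chromosome 16, 68670092 to 68761371, plus strand) encodes P-cadherin, a classical cadherin best known from basal epithelial layers and placenta. Its level was 30.4 and 29.7 FPKM in the controls and 38.2 and 40.8 FPKM in KIF26B siRNA replicates 1 and 2. These values did not overlap either, in the other direction, with a mean 31.3% above that of the controls and a log2 fold change of 0.38 (SE 0.11, limma adjusted p 0.273).

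CDH3 and CDH1 lie head to tail on the same strand with 9823 bases between them. Set against each other, the ratio of CDH3 to CDH1 was 1.27 and 1.24 in the controls and 2.16 and 2.02 in KIF26B siRNA replicates 1 and 2, so the mean ratio was 1.66-fold higher. Because both genes are read in the same library, this ratio does not depend on library size. CDH1 made up 44.1% and 44.6% of the summed FPKM of CDH1, CDH2 and CDH3 in the controls, and 31.7% and 33.2% in the KIF26B siRNA libraries. The sum itself was 54.6 and 53.6 FPKM in the controls and 55.9 and 61.0 FPKM in the others. CDH2, which encodes N-cadherin, was near the limit of detection, with 5 and 2 reads in the controls and 0 in both KIF26B siRNA libraries. With 2 libraries a group, an exact permutation test of a single ratio cannot give a two-sided p below 0.333, so the ratios and shares are given as values. The ratio of a gene higher in both KIF26B siRNA libraries to a gene lower in both separates the groups by construction. Such a separation adds no evidence to the values of the genes.

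The alpha-catenin and p120-catenin genes also differed in direction. CTNNA1 (ENSG00000044115; chromosome 5, 137946656 to 138270723, plus strand) encodes alpha-E-catenin, which couples the cadherin complex to actin. CTNNA1 was at 61.9 and 61.6 FPKM in the controls and at 54.4 and 55.9 FPKM in KIF26B siRNA replicates 1 and 2. All 4 values rested on at least 8911 reads, neither KIF26B siRNA library reached the lower control, and the mean was 10.7% lower (log2 fold change -0.16, SE 0.11, limma adjusted p 0.506). CTNND1 (ENSG00000198561; chromosome 11, 57520715 to 57587018, plus strand) encodes p120-catenin, which binds the juxtamembrane part of cadherins and holds them at the cell surface. CTNND1 was at 30.3 and 30.7 FPKM in the controls and at 35.2 and 32.7 FPKM in KIF26B siRNA replicates 1 and 2. It was higher in both, by 11.3% in the mean, with a log2 fold change of 0.15 (SE 0.11, limma adjusted p 0.553).

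The ratio of CTNND1 to CTNNA1 was 0.490 and 0.499 in the controls and 0.647 and 0.586 in KIF26B siRNA replicates 1 and 2. Of the other alpha-catenins, CTNNA2 had no read and CTNNA3 had 1 read in the 4 libraries together. Within the p120 family, CTNND1 took 66.6% and 65.7% of the FPKM of CTNND1, CTNND2 and ARVCF in the controls, 71.4% in KIF26B siRNA replicate 1 and 58.9% in replicate 2. That share did not order the groups, since ARVCF was at 15.2 and 16.0 FPKM in the controls, 14.1 FPKM in KIF26B siRNA replicate 1 and 22.9 FPKM in replicate 2. The annotated exons of CTNND1 overlap those of a same-strand locus, ENSG00000254732, along 1926 bases, and this locus was at 0.791 and 0.839 FPKM in the controls and at 1.78 and 1.62 FPKM in the others. They also overlap those of another same-strand locus, ENSG00000288534, along 5952 bases, for which the deposited data held no value. How reads in the shared bases were assigned was not stated.

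JUP (ENSG00000173801; chromosome 17, 39910856 to 39943183, minus strand) encodes plakoglobin, or gamma-catenin, the protein present in both junction types. It was at 90.1 and 90.0 FPKM in the controls, at 98.6 FPKM in KIF26B siRNA replicate 1 and at 125.0 FPKM in replicate 2. Both KIF26B siRNA values were above the controls, but they differed by 1.27-fold from each other (95% counting interval 1.23 to 1.30). The mean was 24.1% higher and the log2 fold change was 0.30 (SE 0.16, limma adjusted p 0.421). CTNNB1, encoding the related beta-catenin that takes the same place on classical cadherins and also acts in Wnt signalling, was at 33.2 and 32.3 FPKM in the controls, 34.4 FPKM in KIF26B siRNA replicate 1 and 25.9 FPKM in replicate 2. JUP therefore made up 73.1% and 73.6% of the FPKM of the pair in the controls, 74.1% in KIF26B siRNA replicate 1 and 82.8% in replicate 2, and most of the shift in this share lay in replicate 2.

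The plakophilins, armadillo proteins that cluster desmosomal cadherins and bind desmoplakin, differed in direction. PKP2 (ENSG00000057294; chromosome 12, 32943679 to 33049732, minus strand), the plakophilin of simple epithelia and heart, was at 6.94 and 6.82 FPKM in the controls and at 5.23 and 4.35 FPKM in KIF26B siRNA replicates 1 and 2. The recovered reads were 960, 1186, 787 and 553. PKP2 was lower in both KIF26B siRNA libraries, by 30.5% in the mean, and its log2 fold change of -0.45 (SE 0.13, limma adjusted p 0.272) was the furthest from 0 among the 10 genes. PKP3 (ENSG00000184363; chromosome 11, 392614 to 404908, plus strand), a plakophilin of most desmosome-bearing epithelia, was at 33.1 and 32.1 FPKM in the controls and at 37.8 and 41.9 FPKM in KIF26B siRNA replicates 1 and 2. Again the groups did not overlap, and PKP3 was 22.4% higher in the mean (log2 fold change 0.28, SE 0.12, limma adjusted p 0.346).

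The ratio of PKP3 to PKP2 was 4.76 and 4.70 in the controls and 7.24 and 9.65 in KIF26B siRNA replicates 1 and 2, a mean ratio 1.78-fold higher. PKP2 took 14.3% of the plakophilin FPKM in each control and 10.3% and 8.16% in the others, while PKP3 took 68.0% and 67.2% in the controls and 74.4% and 78.7% in the others. PKP4, which is found in adherens junctions as well as desmosomes, was at 8.63 and 8.83 FPKM in the controls and 7.78 and 6.98 FPKM in KIF26B siRNA replicates 1 and 2 (log2 fold change -0.22, limma adjusted p 0.427). PKP1, a plakophilin of stratified epithelia, had at most 2 reads in a library. The 3 tested genes nearest to PKP2 over the 4 libraries, by Euclidean distance of centred log2(FPKM + 1), were MTFP1 (distance 0.0147), WWC3 (0.0219) and AGFG1 (0.0255). MTFP1 was at 2.25, 2.20, 1.52 and 1.17 FPKM in control replicates 1 and 2 and KIF26B siRNA replicates 1 and 2.

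DSP (ENSG00000096696; chromosome 6, 7541571 to 7586947, plus strand) encodes desmoplakin, which ties the desmosomal plaque to keratin filaments. DSP was at 36.4 and 37.4 FPKM in the controls, at 38.0 FPKM in KIF26B siRNA replicate 1 and at 34.0 FPKM in replicate 2. The KIF26B siRNA libraries lay on either side of the controls, with a percent change of the mean of -2.37% and a log2 fold change of -0.04 (SE 0.12, limma adjusted p 0.900). The ratio of JUP to DSP was 2.48 and 2.41 in the controls, 2.59 in KIF26B siRNA replicate 1 and 3.68 in replicate 2.

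The desmosomal cadherins lie together on chromosome 18, where 7 genes span 559641 bases of GRCh37. DSC3, DSC2 and DSC1 are on the minus strand and DSG1, DSG4, DSG3 and DSG2 on the plus strand. Of these, DSG2, DSC2 and DSC3 were expressed, while DSG1, DSG3, DSG4 and DSC1 had at most 13 reads in a library. DSG2 (ENSG00000046604; 29078140 to 29128971), the desmoglein of simple epithelia, was at 57.1 and 56.5 FPKM in the controls and at 55.2 and 57.1 FPKM in KIF26B siRNA replicates 1 and 2. These values overlapped, and the percent change of the mean was -1.04% (log2 fold change -0.01, SE 0.11, limma adjusted p 0.954).

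DSC2 (ENSG00000134755; 28638806 to 28682485), the desmocollin partner of DSG2 in simple epithelia, differed most between libraries of the same label. DSC2 was at 6.26 and 6.48 FPKM in the controls, at 7.75 FPKM in KIF26B siRNA replicate 1 and at 2.87 FPKM in replicate 2, from 1535, 1998, 2068 and 647 reads. It was thus above both controls in KIF26B siRNA replicate 1 and below both in replicate 2, at 0.370 times the level of replicate 1 (95% counting interval 0.338 to 0.404). A difference at least this large between these libraries was found in 3.19% of all genes tested. The log2 fold change of the groups was -0.34 (SE 0.43, limma adjusted p 0.718). DSC3 was at 3.31 and 3.76 FPKM in the controls, 4.25 FPKM in KIF26B siRNA replicate 1 and 2.49 FPKM in replicate 2, the same order of libraries as DSC2. The share of DSC2 in the desmosomal cadherin FPKM was 9.39% and 9.71% in the controls, 11.5% in KIF26B siRNA replicate 1 and 4.58% in replicate 2, and that of DSG2 was 85.6%, 84.6%, 81.9% and 91.2% in the same order.

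The sequences before the annotated starts of JUP, DSG2 and DSC2 are shown because JUP and DSC2 had the widest spread between KIF26B siRNA libraries and DSG2, from the same cluster as DSC2, had nearly equal values in all 4. Each line gives the 250 bases before the first start listed by RefSeq on GRCh38.p14, 5′ to 3′ on the gene's strand. Capitals mark the E-box letters CAGGTG or CACCTG, which repressors of the Snail and ZEB families can bind, and the GC box letters GGGCGG or CCGCCC, which Sp family factors can bind, on either strand.
JUP chr17:41786712-41786961, minus strand: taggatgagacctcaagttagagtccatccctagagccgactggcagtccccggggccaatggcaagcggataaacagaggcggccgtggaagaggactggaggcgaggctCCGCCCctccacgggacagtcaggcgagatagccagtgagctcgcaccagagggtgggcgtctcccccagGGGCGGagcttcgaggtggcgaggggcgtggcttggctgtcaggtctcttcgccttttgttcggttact
DSG2 chr18:31497927-31498176, plus strand: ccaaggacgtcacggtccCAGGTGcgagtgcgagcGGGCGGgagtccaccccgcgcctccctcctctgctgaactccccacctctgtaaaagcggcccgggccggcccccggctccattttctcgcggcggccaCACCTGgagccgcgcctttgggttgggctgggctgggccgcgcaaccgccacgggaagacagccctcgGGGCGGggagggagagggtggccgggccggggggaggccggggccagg
DSC2 chr18:31102422-31102671, minus strand: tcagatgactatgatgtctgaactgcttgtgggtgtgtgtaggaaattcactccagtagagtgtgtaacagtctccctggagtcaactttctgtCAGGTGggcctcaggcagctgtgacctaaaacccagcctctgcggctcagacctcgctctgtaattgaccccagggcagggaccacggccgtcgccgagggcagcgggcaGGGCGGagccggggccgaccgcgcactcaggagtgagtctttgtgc
RefSeq promoter entries were matched for 5 of the 10 genes (CTNNA1, JUP, DSP, DSG2 and DSC2). The JUP window had GC boxes 139 and 69 bases before the start and no E-box. The window before the second listed JUP start had E-boxes 54 and 43 bases before it. The DSG2 window had E-boxes 232 and 116 bases and GC boxes 215 and 48 bases before the start. In the DSC2 window there was 1 E-box at 156 bases and 1 GC box at 46 bases. These motif letters are common, since the E-box was in 17.5% and the GC box in 42.3% of 27305 RefSeq windows of the same length. No window of the 5 genes held the AP-1 letters TGAGTCA or the Grainyhead-like letters AACCGGTT, which were in 4.16% and 0.106% of all windows. The matches describe letters and were not set against binding data.

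**Figure D2:**
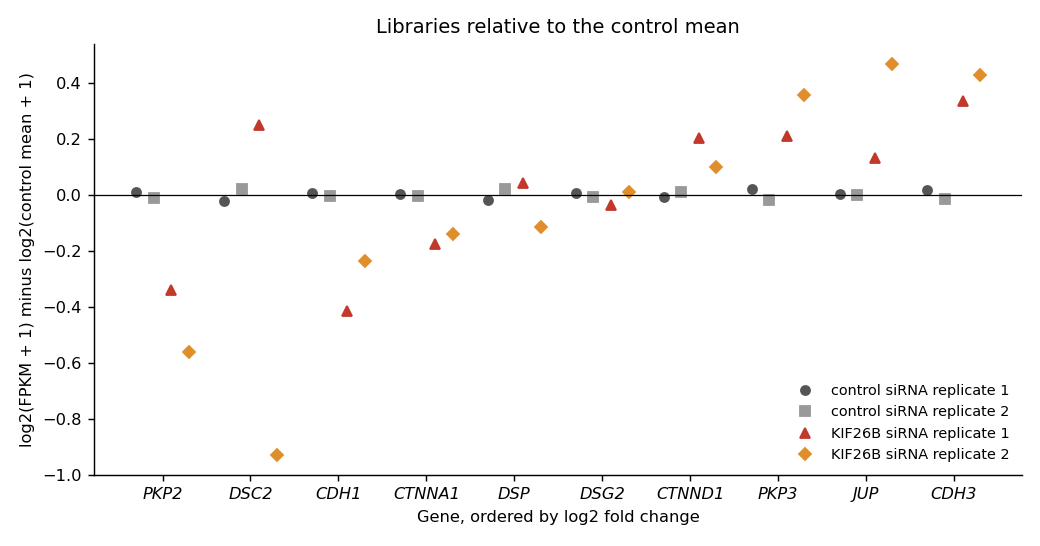
Difference of log2(FPKM + 1) in each library from that of the control mean, for the 10 genes ordered by log2 fold change, with the line at 0 marking the control mean. Both KIF26B siRNA libraries sit on the same side of the controls for 7 genes, and DSC2 lies 0.25 above the control mean in replicate 1 and 0.93 below it (-0.93) in replicate 2.

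The spread between replicates differed between the groups. Control replicate 2 was 0.971 to 1.04 times control replicate 1 over the 10 genes. For 0 of 10 did the 95% counting interval of this ratio leave out 1, beside 18.8% of 14507 genes tested. These 14507 genes had recovered reads in at least 1 library of each group. KIF26B siRNA replicate 2 was 0.370 to 1.27 times replicate 1, and for 8 of 10 genes (all but CTNNA1 and DSG2) the interval left out 1, beside 63.8% of the same 14507 genes. The median absolute log2 difference over all genes tested was 0.0733 between the controls and 0.280 between the KIF26B siRNA libraries. The counting intervals cover counting error only.

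Removing 1 library at a time changed calls through the KIF26B siRNA libraries. Without KIF26B siRNA replicate 1, limma gave DSC2 a log2 fold change of -0.93 (adjusted p 0.0463), PKP2 -0.56 (adjusted p 0.0470) and JUP 0.47 (adjusted p 0.0486). In that fit the lone KIF26B siRNA library was assumed to vary like the controls, and 8.59% of all genes tested were called lower and 8.68% higher. Without KIF26B siRNA replicate 2, DSC2 was at 0.25 (adjusted p 0.109), PKP2 at -0.34 (adjusted p 0.0750) and JUP at 0.13 (adjusted p 0.229). CDH3 and PKP3, like PKP2 and JUP, were further from 0 without replicate 1 than without replicate 2. CDH1, CTNNA1 and CTNND1 ran the other way, at -0.24, -0.14 and 0.10 without replicate 1 and at -0.42, -0.18 and 0.20 without replicate 2. Without control replicate 1 or 2, DSC2 was at -0.36 or -0.32, PKP2 at -0.44 or -0.46 and JUP at 0.30 in either fit. Any relation of these shifts to the level of KIF26B was not tested. Over the fits on all 4 libraries, limma adjusted p ran from 0.674 to 0.838 for DSC2, from 0.212 to 0.428 for PKP2 and from 0.350 to 0.547 for JUP, and over all fits on 3 libraries it reached 0.9996 for each of them.

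Of 37 further genes of adherens junctions and desmosomes, 25 were tested and 12 were below 1 FPKM in the mean. Among those tested, 19 had a lower and 6 a higher mean log2 level with KIF26B siRNA, and the median log2 fold change was -0.13. Of all genes tested, 7490 had a lower and 7033 a higher mean log2 level. The groups did not overlap for 14 lower and 4 higher genes, 72% of the list, beside 52.6% of all genes tested (27.8% lower and 24.9% higher). None passed limma at an adjusted p of 0.05 (lowest 0.242), and 6 lower and 2 higher genes had an unadjusted P below 0.05, beside 8.68% lower and 7.74% higher of all genes tested. Among the 6 were keratins and alpha-actinins, proteins of the filaments that junctions attach to or of their crosslinks. KRT8 and KRT18, the paired keratins of simple epithelia, were at 483.3 ± 2.31 and 243.6 ± 1.54 FPKM in the controls. With KIF26B siRNA they were at 359.3 ± 13.0 and 171.2 ± 5.23 FPKM. The log2 fold changes were -0.43 (SE 0.11, limma adjusted p 0.254) and -0.51 (SE 0.11, limma adjusted p 0.242). On chromosome 12, KRT8 (minus strand) ends at 53343738 and KRT18 (plus strand) starts at 53342655, so their annotated spans overlap. Since strand use in counting is not stated, reads in the shared stretch cannot be told apart. ACTN4, an actin-crosslinking alpha-actinin, was at 215.6 ± 4.03 against 149.9 ± 25.6 FPKM (-0.53, SE 0.16, limma adjusted p 0.276). ACTN1, the other non-muscle alpha-actinin, was at 22.9 ± 0.215 against 18.0 ± 1.41 FPKM.

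CTNNAL1, which encodes an alpha-catenin-like protein, was at 41.6 ± 0.680 FPKM in the controls and 28.5 ± 3.72 FPKM with KIF26B siRNA (log2 fold change -0.54, SE 0.14, limma adjusted p 0.258). KIFC3, a minus-end kinesin found at adherens junctions, was at 7.06 ± 0.123 against 5.48 ± 0.133 FPKM. Higher values were seen for PERP, a tetraspan protein of desmosomes, at 43.7 ± 0.607 against 67.9 ± 9.39 FPKM (0.62, SE 0.15, limma adjusted p 0.248). EVPL, which encodes the plakin envoplakin, was at 10.2 and 10.4 FPKM in the controls and 17.8 and 13.4 FPKM in KIF26B siRNA replicates 1 and 2. KRT19, a simple-epithelial keratin, did not share the direction of KRT8 and KRT18, with 842.1 and 862.1 FPKM in the controls and 921.4 and 951.3 FPKM in KIF26B siRNA replicates 1 and 2 (0.14, limma adjusted p 0.573).

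**Figure D3:**
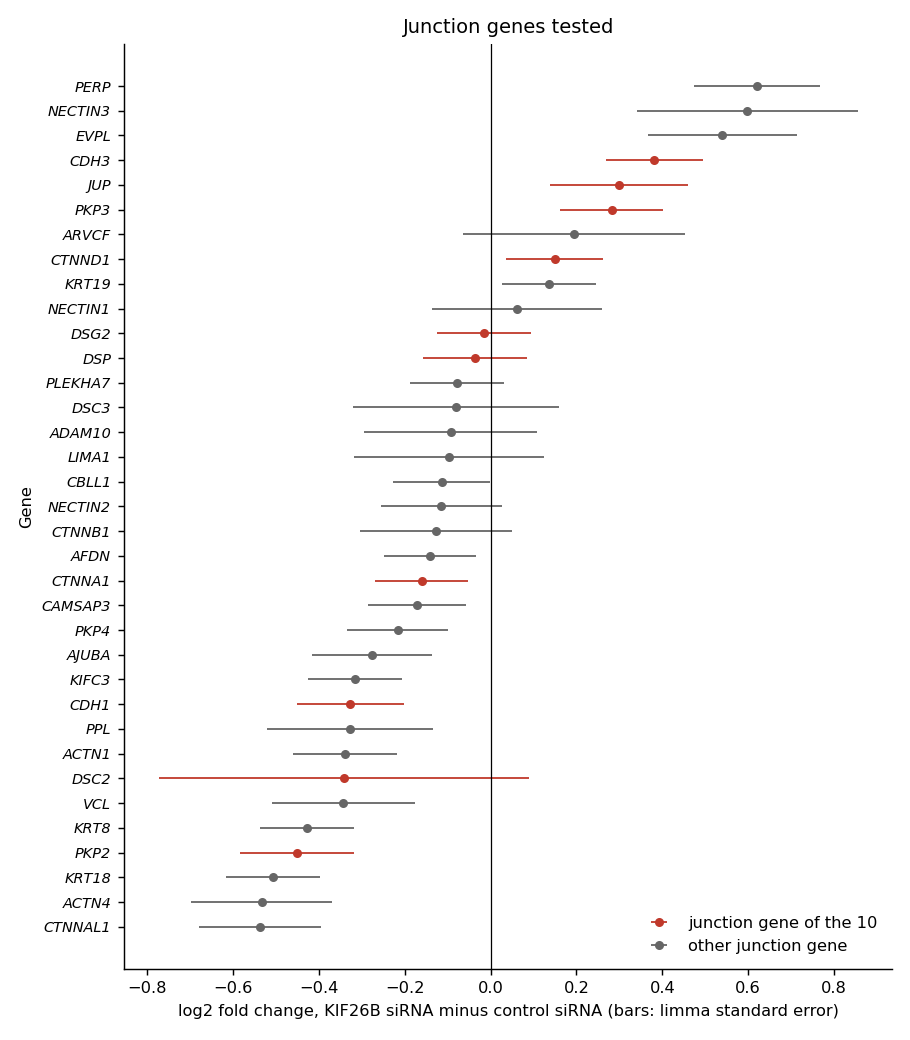
log2 fold change (KIF26B siRNA minus control siRNA, on log2(FPKM + 1)) of the 10 junction genes and the 25 further junction genes tested, with bars for the limma standard error. The 10 genes run from PKP2 (-0.45) to CDH3 (0.38), and DSC2 has the widest bar of them (SE 0.43).

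Of 11 transcription factors known to act on junction genes, 6 were tested, 3 with a negative and 3 with a positive log2 fold change (median -0.09), and limma adjusted p ran from 0.349 to 0.997. The groups did not overlap for 2 lower and 1 higher of those tested, 50%, beside 52.6% of all genes tested. SNAI1, a repressor of CDH1, was at 8.61 and 7.98 FPKM in the controls and at 7.50 and 6.40 FPKM in KIF26B siRNA replicates 1 and 2, below both controls. OVOL1 was also lower in both, at 3.16 and 3.53 against 2.60 and 2.60 FPKM. KLF5, an epithelial Krüppel-like factor, was at 24.8 and 24.5 FPKM in the controls and at 26.4 and 27.3 FPKM in the others. GRHL2 and GRHL1, Grainyhead-like activators of epithelial junction genes, had log2 fold changes of 0.17 and -0.18, with overlapping groups. ELF3, an epithelial ETS factor, also overlapped, at 21.3 and 19.8 FPKM in the controls and at 16.9 and 25.0 FPKM in KIF26B siRNA replicates 1 and 2. The other 5, SNAI2, ZEB1, ZEB2, TWIST1 and OVOL2, were below 1 FPKM in the mean.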

How the data were processed

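HCT116 RNA was sequenced in 4 libraries, 2 per siRNA group, and groups and replicate numbers were taken from the sample labels. The study's methods describe poly(A) mRNA and paired-end libraries. The submitters' processing notes name hg38, HISAT2 2.0.5 and featureCounts 1.5.0-p3, whereas the study's methods name hg19. The values the authors deposited are FPKM per Ensembl gene, a unit read from the values, and whether counting used the strand is not given in the sources used here. Identifiers were matched to GENCODE version 44 on GRCh37, giving 56513 symbols, and these coordinates only locate genes.

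Genes averaging at least 1 FPKM were tested with limma 3.58.1 (R 4.3.3) on log2(FPKM + 1), all 4 libraries, no covariates, empirical Bayes moderation (2 residual and 2.00 prior degrees of freedom) and p-values adjusted by Benjamini-Hochberg over these genes. A fold change on this scale understates changes of low genes. Whole reads were recovered by searching the transcript length at which all 4 FPKM values became whole counts. Where all counts of a gene share a factor, its reads may be understated by that factor, which would widen its counting interval. Intervals are 95% counting intervals of a ratio of reads. With 2 libraries a group, the precision of any difference is set by replicate spread. The fit was tested on simulated data with known fold changes and the same spread in either group, which these libraries did not have.

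The genes, further lists and tests were chosen with earlier results of these data known. The rule for naming took all 10 genes, further junction genes at an unadjusted P below 0.05 or needed for family shares, transcription factors with a test, and the 3 nearest genes to the one with the largest log2 fold change. KRT19, VIL1, FN1, COL1A1 and SNAI2 were named after their values were seen. Alternatives were a replicate block, other pseudocounts, filters and scalings, a variance trend, limma-voom on recovered reads, and leaving out each library.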

Additional observations from a re-analysis of the deposited data

How the results depend on the processing

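Over the 9 alternatives with all 4 libraries, 9 of the 10 genes kept the sign of their log2 fold change, and DSG2 reversed to 0.0019 under median-of-ratios scaling. No setting with 4 libraries gave an adjusted p below 0.05 for any gene. At an unadjusted P below 0.05, 1 of the 10 genes was lower and 1 higher. The number lower was 2 without a filter, with a variance trend, with limma-voom, with scaling without mitochondrial genes and with scaling by total recovered reads, a setting added after seeing the data. The number higher was 2 without a filter and with a variance trend. Over all genes, the main fit had 1261 lower and 1124 higher of 14523. Without a filter, 2186 were lower and 2192 higher of 34638 genes, and with a variance trend 1319 and 1143. Those lower were 1472 with limma-voom, 1313 with scaling without mitochondrial genes and 1495 with scaling by total recovered reads. Deviations from the group mean did not correlate across genes between libraries of the same replicate number (correlation -0.0031). With 2 libraries a group, this value cannot show whether the numbers pair the libraries. The limma fit with the replicate block gave 0 of the 10 genes lower and 0 higher at an unadjusted P below 0.05. Their adjusted p in that fit ran from 0.428 to 0.974. Of the further junction genes, 3 were lower at an unadjusted P below 0.05 in place of 6. Over all genes the block left 861 lower and 864 higher in place of 1261 and 1124. Of the further junction genes, 1 in place of 2 was higher under scaling without mitochondrial genes and by total recovered reads. Scaling by total recovered reads also put 4 of the 10 genes, in place of 3, below both controls in both KIF26B siRNA libraries. It left 4 above both, and the share over all genes was not computed in that setting. The causes were not tested.

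Leaving out 1 library at a time gave 0 to 3 genes lower and 0 to 3 higher at an unadjusted P below 0.05 (1.61% to 23.7% lower and 1.82% to 22.9% higher of all genes tested), 0 to 2 lower and 0 to 1 higher at an adjusted p below 0.05, 3 to 5 below and 4 to 6 above all controls (33.8% to 45.8% below and at least 30.6% above, of all genes tested), and a median log2 fold change of -0.053 to 0.086. For the further junction genes these were 0 to 13 lower and 0 to 4 higher unadjusted, and 0 to 2 lower and 0 to 2 higher adjusted. DSG2 ran from -0.039 to 0.0087, DSP from -0.11 to 0.043 and DSC2 from -0.93 to 0.25. Over all genes tested, more passed an adjusted p of 0.05 without KIF26B siRNA replicate 1 than in any other of these fits.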

Other observations

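SNAI2, a repressor of CDH1 related to SNAI1, was below 1 FPKM in the mean and outside the main test, and is described because of its values. It was at 0.901 and 0.848 FPKM in the controls and at 0.207 and 0.212 FPKM in KIF26B siRNA replicates 1 and 2, from 60, 71, 15 and 13 recovered reads. Both libraries labelled KIF26B siRNA were below both controls, also the one in which KIF26B was not lower. Both lay below both controls for 27.8% of the genes in the main test. Genes below 1 FPKM in the mean are not part of that share. Of the other transcription factors below 1 FPKM, TWIST1 overlapped, and ZEB1 and OVOL2 were lower in both. ZEB1 had 177, 187, 149 and 117 reads and OVOL2 had 24, 40, 22 and 6, in the same order of libraries. ZEB2 had 1 and 3 reads in the controls and 0 in both KIF26B siRNA libraries, too few to compare. With no filter on low values, limma gave SNAI2 a log2 fold change of -0.63 on the log2(FPKM + 1) scale and an adjusted p of 0.250. CDH1 was also lower in both KIF26B siRNA libraries, and a link to SNAI2 was not tested.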
